A study of Mus musculus with 6 samples.

Results

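The YTH domain genes are the 5 mouse genes Ythdf1, Ythdf2, Ythdf3, Ythdc1 and Ythdc2. They were taken by symbol from the deposited table of 55401 gene rows, and all 5 were found and passed the filter on low counts, which kept 20587 genes. The samples were 6 bulk poly(A) RNA libraries of adult mouse anterior cingulate cortex, on the medial wall of the frontal lobe, of which 3 carried the label Ythdf1 knockout (KO) and 3 the label Ythdf1 wild type (WT). The labels name no treatment, strain, sex or exact age, and they do not describe the allele. Nor do they say whether each replicate was a different animal, so the spread behind every p-value is that between libraries and could be technical.

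YTH proteins read N6-methyladenosine (m6A), a methyl mark on internal adenosines of mRNA. The YTH domain holds the methylated base in a cage of aromatic residues. YTHDF1, YTHDF2 and YTHDF3 are close relatives in the cytoplasm that have been linked to translation and decay of marked mRNAs, and how far they stand in for each other is debated. YTHDC1 is the nuclear reader, tied to splicing and export, and YTHDC2 is a large RNA helicase known best for its part in meiosis. In the brain YTHDF1 has been linked to synaptic translation and to learning. The comparison of genotypes asks how far Ythdf1 mRNA differed and whether the 4 paralogues differed with it.

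The deposited counts summed to between 61792250 and 69848835 per library in the KO group and between 65804611 and 66740463 in the WT group. Each YTH gene had 1872 to 7023 counts in every library, so counting alone gave an error of at most 2.31% (Ythdf2, the lowest count). Cortical markers were present in all libraries: the 8 excitatory markers, among them Slc17a7, summed to 8391 to 8995 CPM in KO libraries and 8702 to 9003 CPM in WT libraries, and 0 of the 8 were at 0 counts anywhere. CPM is the count per 1000000 of the TMM-scaled library size. Markers of some other cell types leaned one way. The 8 meningeal markers summed to 55.0 to 72.7 CPM in KO libraries and 82.8 to 174.7 CPM in WT libraries, with 8 of 8 lower in KO, and the 8 striatal markers to 165.9 to 174.3 CPM in KO libraries and 183.6 to 354.0 CPM in WT libraries, also with 8 of 8 lower. The 8 oligodendrocyte markers summed to 4417 to 6727 CPM in KO libraries and 3960 to 4714 CPM in WT libraries, with 8 of 8 higher, and the 6 endothelial markers to 117.1 to 157.5 CPM in KO libraries and 136.0 to 184.7 CPM in WT libraries, with 6 of 6 lower. The striatal sum was 195.2, 354.0 and 183.6 CPM in WT libraries 1, 2 and 3. The oligodendrocyte sum was 6727, 5080 and 4417 CPM in KO libraries 1, 2 and 3. The high end of either range thus rested on a single library. The oligodendrocyte and endothelial sums overlapped between the groups, as did those for inhibitory neurons, astrocytes, oligodendrocyte precursors and microglia. The meningeal and striatal sums did not overlap. The part of these shifts in the YTH values was not tested, and in bulk tissue fewer cells of a type and less RNA per cell cannot be told apart.

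The 3 DF genes are alike enough that it matters whether their reads can be told apart, so the stretch in which they are most alike is shown. Their coding sequences (1761 bases in Ythdf1, 1740 in Ythdf2 and 1791 in Ythdf3) matched at 67.5% of 1665 aligned bases for Ythdf1 and Ythdf2, 70.0% of 1677 for Ythdf1 and Ythdf3, and 69.4% of 1721 for Ythdf2 and Ythdf3. The 150 bases with the most shared positions, the length of 1 sequencing read, are given 5′ to 3′ from the GENCODE M21 transcripts. They lie within the coding sequence, and where the YTH domain begins and ends in it was not mapped. Capitals mark the positions at which the 3 genes are not all the same.
Ythdf1: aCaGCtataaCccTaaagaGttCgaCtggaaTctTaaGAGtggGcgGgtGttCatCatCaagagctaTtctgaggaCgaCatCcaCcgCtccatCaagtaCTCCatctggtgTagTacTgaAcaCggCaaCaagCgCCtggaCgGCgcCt
Ythdf2: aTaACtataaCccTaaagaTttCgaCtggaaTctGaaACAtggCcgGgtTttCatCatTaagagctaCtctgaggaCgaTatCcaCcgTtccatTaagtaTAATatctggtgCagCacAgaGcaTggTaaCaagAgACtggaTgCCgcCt
Ythdf3: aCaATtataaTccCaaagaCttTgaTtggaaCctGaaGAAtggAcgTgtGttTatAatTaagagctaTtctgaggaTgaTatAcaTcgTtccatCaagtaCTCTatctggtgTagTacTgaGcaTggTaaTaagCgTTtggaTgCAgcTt
The window covers coding bases 1205 to 1354 of Ythdf1 (ENSMUST00000108876.8), 1187 to 1336 of Ythdf2 (ENSMUST00000152796.7) and 1238 to 1387 of Ythdf3 (ENSMUST00000108346.4), counted from the first base of the start codon. Of its 150 positions 106 were the same in all 3 genes and 44 were not, and 36 of those 44 were at the last base of a codon. Even here a pair of paralogues differed at 28 positions (Ythdf1 and Ythdf2) to 32 positions (Ythdf2 and Ythdf3). Over all annotated transcripts the longest run shared exactly by a pair was 22 bases, between Ythdf1 and Ythdf2.

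Ythdf2 alone of the DF genes had near copies elsewhere, in which at least 150 bases matched at 95% identity or more. These are the predicted genes Gm8401, with a match over 1740 bases, and Gm6823, with one over 1840 bases. Gm8401 had 16, 5 and 5 counts in KO libraries 1, 2 and 3 and 2, 0 and 4 counts in WT libraries 1, 2 and 3. Gm6823 had 2, 2 and 4 counts in the KO libraries and 0 counts in each WT library. Neither copy exceeded 0.724% of the Ythdf2 count in any library, although reads of a copy that were counted to Ythdf2 cannot be seen in these totals. In Ythdc1, 631 bases of exon (4.62% of the merged exons) overlap the noncoding gene Gm43055 on the same strand, which had 0 counts in all 6 libraries. Transcripts of Ythdc1 also matched those of 59 other genes at 95% identity over at least 150 bases, Gm43055 included, so part of its count is uncertain where such reads could be shared.

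Ythdf1 (ENSMUSG00000038848, GRCm38 chromosome 2, 180904377 to 180920949, reverse strand) encodes the reader that the labels name as the targeted gene, and its mRNA was no lower in libraries carrying the KO label. It had 4102, 3811 and 3603 counts in KO libraries 1, 2 and 3 and 3715, 3479 and 3262 counts in WT libraries 1, 2 and 3. After scaling this was 58.3, 62.1 and 57.2 CPM in the KO libraries, against 55.8, 53.3 and 49.0 CPM in the WT libraries. The lowest KO library stood above the highest WT library, so the groups did not overlap. The means were 59.2 ± 2.59 CPM in KO and 52.7 ± 3.43 CPM in WT (SD, n = 3 each), a log2 fold change of 0.17 with a standard error (SE) of 0.066. edgeR's quasi-likelihood test gave an unadjusted p of 0.0313 and a Benjamini-Hochberg adjusted p of 0.93 over all genes tested, so the difference did not pass the threshold of 0.05. The 95% interval ran from a 1.01-fold to a 1.25-fold level in KO. It therefore held no decrease of the transcript total in the libraries labelled KO. Counts summed over the gene can miss a short deletion or a shifted reading frame and say nothing of the protein. "KO" is therefore used below as the label of the libraries.

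Ythdf2 (chromosome 4, 132184912 to 132212303, reverse strand), the DF reader best known for bringing the CCR4-NOT deadenylase to marked mRNAs, leaned the same way and did not pass. It stood at 31.4, 34.0 and 33.2 CPM in KO libraries 1, 2 and 3 and at 28.1, 28.8 and 31.6 CPM in WT libraries 1, 2 and 3. WT library 3 lay above KO library 1, so the groups overlapped. The means were 32.9 ± 1.33 CPM in KO and 29.5 ± 1.86 CPM in WT (SD, n = 3 each), with a log2 fold change of 0.15 (SE 0.074, edgeR unadjusted p = 0.0649, adjusted p = 0.93). The 95% interval of the fold was 0.992 to 1.25.

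Ythdf3 (chromosome 3, 16183212 to 16217037, forward strand), the DF reader described as working together with both others, had the opposite sign. It stood at 94.0, 97.5 and 98.8 CPM in KO libraries 1, 2 and 3, against 104.6, 104.8 and 95.9 CPM in WT libraries 1, 2 and 3. WT libraries 1 and 2 were the highest, and WT library 3 lay among the KO libraries. The means were 96.8 ± 2.48 CPM in KO and 101.8 ± 5.08 CPM in WT (SD, n = 3 each), with a log2 fold change of -0.07 (SE 0.054, edgeR unadjusted p = 0.213, adjusted p = 0.969). The 95% interval of the fold was 0.873 to 1.04, so an increase of Ythdf3 beyond that upper bound lay outside it.

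**Figure D1:**
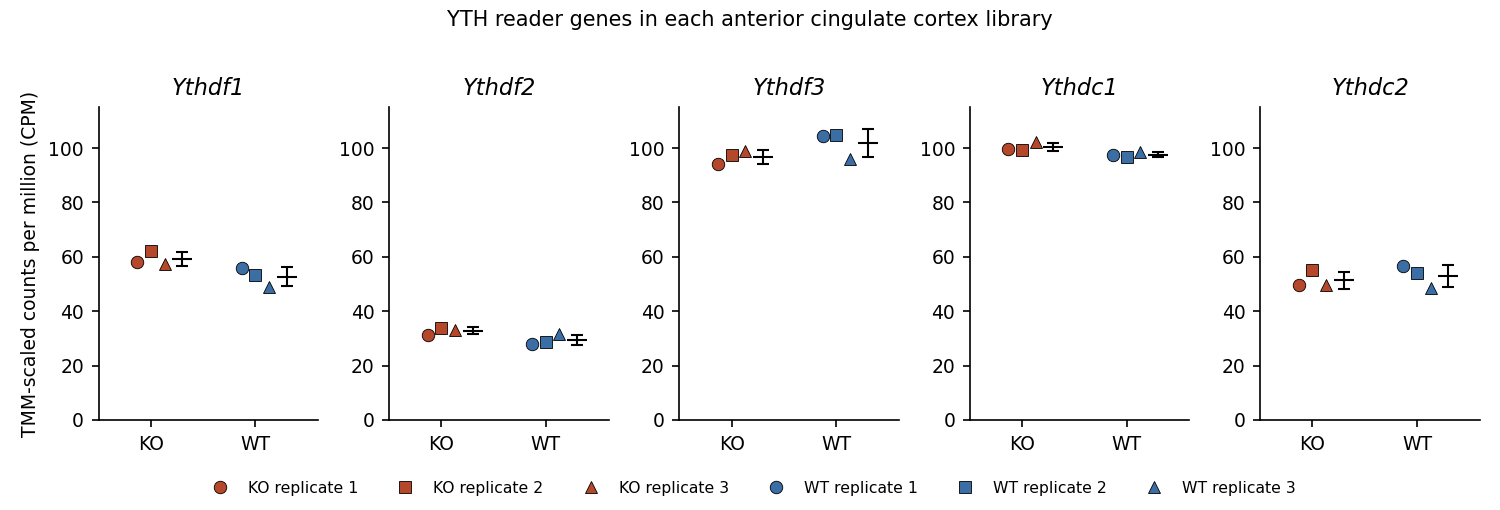
TMM-scaled CPM (vertical axis) of the 5 YTH genes in each library, KO in red and WT in blue, with marker shape for the replicate number and a black bar for the mean ± SD of 3 libraries. Ythdf1 lies at 57.2 to 62.1 CPM in KO and 49.0 to 55.8 CPM in WT, while the Ythdf2, Ythdf3 and Ythdc2 groups overlap.

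Ythdc1 (chromosome 5, 86804221 to 86836659, forward strand), the nuclear reader, was the steadiest of the 5 genes. It stood at 99.7, 99.2 and 102.3 CPM in KO libraries 1, 2 and 3 and at 97.5, 96.8 and 98.5 CPM in WT libraries 1, 2 and 3, a range of 1.06-fold from the lowest to the highest library. The KO libraries lay just above the WT libraries without overlap. The means were 100.4 ± 1.62 CPM in KO and 97.6 ± 0.855 CPM in WT (SD, n = 3 each), with a log2 fold change of 0.04 (SE 0.046, edgeR unadjusted p = 0.399, adjusted p = 0.975) and a 95% interval of the fold from 0.957 to 1.10. The biological coefficient of variation that edgeR gave Ythdc1 was 5.40%, an estimate drawn toward that of other genes of like level. It is therefore not the spread of Ythdc1 alone, whose SD was 1.61% of its mean CPM in KO and 0.875% in WT. Of the 2029 genes within 1.5-fold of its mean level, 97.6% had a larger estimate. For the other members that share was 54.1% (Ythdf1), 68.2% (Ythdf2), 69.3% (Ythdf3) and 34.5% (Ythdc2).

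Ythdc2 (chromosome 18, 44827746 to 44889724, forward strand), the helicase reader, did not differ beyond the spread of its libraries. It stood at 49.5, 55.0 and 49.6 CPM in KO libraries 1, 2 and 3 and at 56.5, 54.0 and 48.4 CPM in WT libraries 1, 2 and 3. The highest and the lowest library were both WT. The means were 51.4 ± 3.17 CPM in KO and 53.0 ± 4.13 CPM in WT (SD, n = 3 each), with a log2 fold change of -0.04 (SE 0.075, edgeR unadjusted p = 0.565, adjusted p = 0.978). The 95% interval of the fold was 0.863 to 1.09, and without WT replicate 1 the log2 fold change was 0.0004.

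Over the family, 0 of 5 members passed the adjusted threshold with edgeR, as in 0.0% of all genes tested with that tool. At an unadjusted p under 0.05 there was 1 member, Ythdf1, against 5.26% of all genes. Groups did not overlap in 2 members, Ythdf1 and Ythdc1, both with KO higher, against 11.0% of all genes in either direction and 5.84% with KO higher. DESeq2, which called 0.165% of all genes, called 0 of the 5 members, and limma voom called 0.0% of all genes. The 95% intervals of the fold for the 4 paralogues together spanned 0.863 (Ythdc2) to 1.25 (Ythdf2). In the authors' deposited table of 537 transcripts listed as differing, 0 belonged to a YTH gene. That list is of single transcripts rather than gene totals, and no share over all transcripts is set beside it here.

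**Figure D2:**
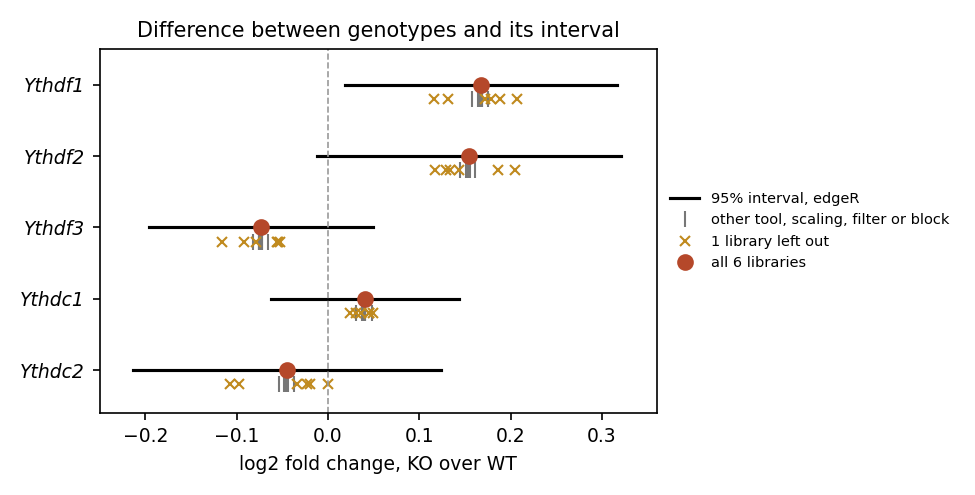
Log2 fold change of each YTH gene, KO over WT (horizontal axis), with edgeR's 95% interval as a line, other tools, scalings, filters and the replicate block as grey ticks, and the fits without 1 library as crosses. The Ythdf1 interval runs from 0.02 to 0.32, the intervals of the other 4 genes include 0, and the cross of Ythdc2 farthest to the right sits at 0.0004.

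Levels of different genes were compared per kilobase. By the length of merged exons (3316 bases in Ythdf1, 4572 in Ythdf2, 5363 in Ythdf3, 13651 in Ythdc1 and 8878 in Ythdc2), Ythdf3 and Ythdf1 were the most abundant. Ythdf3 was at 18.0 ± 0.462 CPM per kb in KO and 19.0 ± 0.948 CPM per kb in WT, and Ythdf1 at 17.9 ± 0.782 in KO and 15.9 ± 1.03 in WT (SD, n = 3 each). The libraries of these genes overlapped in KO (17.5 to 18.4 CPM per kb for Ythdf3, 17.2 to 18.7 for Ythdf1). In WT they did not (17.9 to 19.5 for Ythdf3, 14.8 to 16.8 for Ythdf1). Ythdc1 followed at 7.35 ± 0.119 CPM per kb in KO and 7.15 ± 0.0626 in WT, Ythdf2 at 7.19 ± 0.290 in KO and 6.46 ± 0.407 in WT, and Ythdc2 at 5.79 ± 0.357 in KO and 5.97 ± 0.465 in WT. Ythdc1 and Ythdf2 overlapped in KO, and Ythdf2 and Ythdc2 in WT. The order rests on the length used. The other length was that of the transcript with the longest coding sequence (2960 bases in Ythdc1, 2272 in Ythdf1 and 4929 in Ythdf3). The counts stayed those of the whole gene. By this length Ythdc1 came first, at 33.9 ± 0.547 CPM per kb in KO and 33.0 ± 0.289 in WT. Ythdf1 was then above Ythdf3 in every library (25.2 to 27.3 against 19.1 to 20.0 CPM per kb in KO, 21.6 to 24.6 against 19.5 to 21.3 in WT).

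Whether the other DF readers made up a larger or smaller pool was read from their sum. Ythdf2 and Ythdf3 together stood at 125.4, 131.5 and 132.0 CPM in KO libraries 1, 2 and 3, against 132.7, 133.6 and 127.5 CPM in WT libraries 1, 2 and 3. The highest library was WT and the lowest KO, and the groups overlapped. The difference was -0.02 on the log2 scale (exact two-sided permutation test, p = 0.5, where 3 against 3 libraries cannot go below 0.1), and it was 0.01 without KO replicate 1. With each gene scaled per kb of merged exons, the log2 difference of this sum was -0.01 (exact permutation p = 0.6). The total of all 3 DF genes was 188.8 ± 5.00 CPM in KO and 184.0 ± 6.49 CPM in WT. That was a log2 difference of 0.04 (exact permutation p = 0.4). Per kb of merged exons the total of the 3 was 43.1 ± 1.20 CPM in KO and 41.3 ± 1.54 in WT, a log2 difference of 0.06 (exact permutation p = 0.2).

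Within that total the shares moved by a few percentage points. Ythdf1 made up 41.9%, 42.2% and 40.2% of the trio, per kb of merged exons, in KO libraries 1, 2 and 3, against 39.6%, 38.3% and 37.3% in WT libraries 1, 2 and 3. Ythdf3 made up 41.8%, 41.0% and 42.9% in the KO libraries, against 45.9%, 46.6% and 45.2% in the WT libraries. Neither of these shares overlapped between the groups. The Ythdf1 share was 3.00 percentage points higher in KO and the Ythdf3 share 4.01 points lower in KO (difference -4.01), each at exact permutation p = 0.1, the smallest that 3 against 3 libraries allow. Ythdf2 made up 16.4%, 16.8% and 16.9% in KO libraries and 14.5%, 15.0% and 17.5% in WT libraries, which overlapped (exact permutation p = 0.4). Since shares sum to the whole, these 3 values are not independent of each other.

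Ratios of 2 genes within a library do not depend on how libraries are scaled, so all 10 pairs of members were compared in this way. The Ythdf1 count was 0.620, 0.637 and 0.579 of the Ythdf3 count in KO libraries 1, 2 and 3, against 0.534, 0.508 and 0.511 in WT libraries 1, 2 and 3, a log2 difference of 0.24. The Ythdf1 count was 1.18, 1.13 and 1.15 times the Ythdc2 count in KO libraries, against 0.988, 0.986 and 1.01 times in WT libraries, a log2 difference of 0.21. The Ythdf2 count was 0.334, 0.349 and 0.336 of the Ythdf3 count in KO libraries, against 0.269, 0.275 and 0.330 in WT libraries, a log2 difference of 0.23. In these 3 pairs the KO libraries lay above the WT libraries without overlap. For Ythdf1 over Ythdf2 the log2 difference was 0.01 (exact permutation p = 0.9), with ratios of 1.86, 1.83 and 1.72 in KO libraries and 1.98, 1.85 and 1.55 in WT libraries. The exact permutation p of the 3 separated pairs was 0.1, and 0.333 adjusted over the 10 pairs. Since 0.1 is the smallest p that 3 against 3 libraries allow, no pair could have passed a threshold of 0.05.

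**Figure D3:**
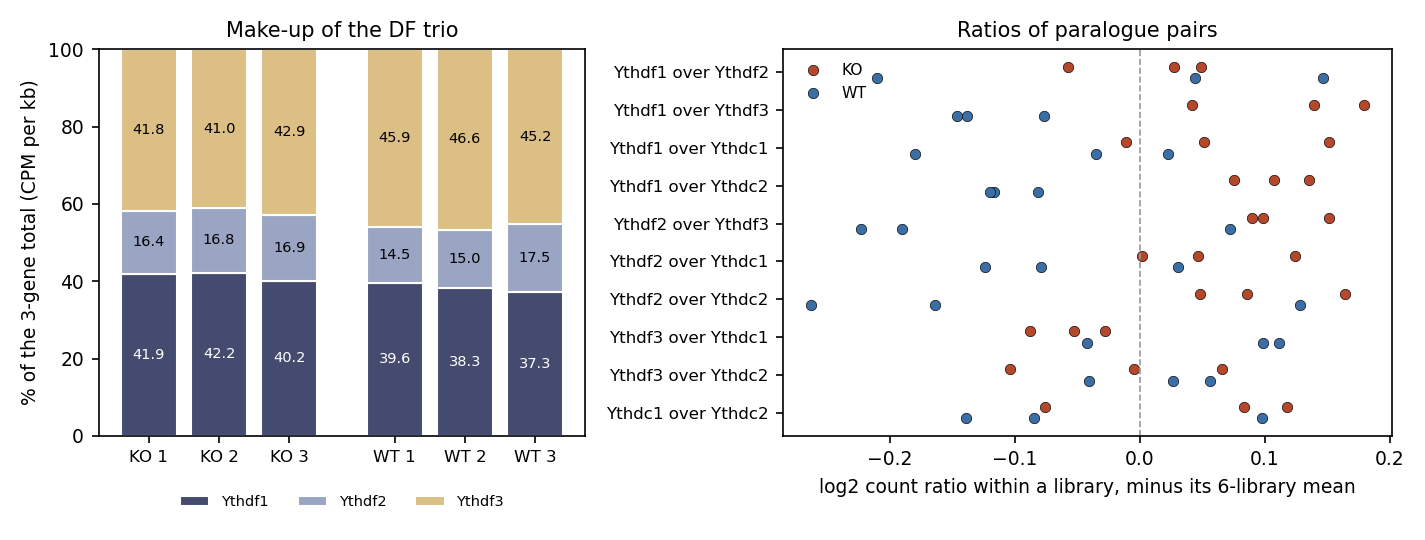
Left, percent of the summed level of Ythdf1, Ythdf2 and Ythdf3 (CPM per kb of merged exons) that each gene makes up in every library. Right, log2 count ratio of each pair of YTH genes within a library, minus the mean of that pair over 6 libraries, with KO in red and WT in blue. Ythdf1 makes up 40.2% to 42.2% in KO and 37.3% to 39.6% in WT. The KO and WT points part in 3 of the 10 pairs, which share genes and are not independent.

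The genes whose profile over the 6 libraries was nearest to that of each member were taken from 11162 other named genes averaging 5 CPM or more, by the root mean square difference between mean-centred log2 values. For Ythdf1 these were Ficd (0.023) and Eepd1 (0.024), against a spread of Ythdf1 itself of 0.106 on the same scale. For Ythdf2 they were Ccdc12 (0.017) and the neuronal transcription factor gene Neurod2 (0.021), against a spread of 0.098. Neurod2 stood at 64.4, 68.1 and 68.1 CPM in KO libraries 1, 2 and 3 and 58.0, 58.6 and 62.7 CPM in WT libraries 1, 2 and 3 (edgeR log2 fold change 0.16, adjusted p = 0.881). For Ythdf3 Herc3 is given (0.016), against a spread of 0.059. For Ythdc1 they were Ndufs3 (0.010) and Dnajc14 (0.012), against a spread of only 0.025, so these small differences are a large part of what Ythdc1 varied at all. For Ythdc2 they were the clock gene Per1 (0.014) and Capza2 (0.017), an actin capping protein gene, against a spread of 0.085. These genes were picked for their likeness to a member, so a fold change near that of the member follows from the choice. A value of 0.5 CPM was added before the logarithm, likeness rests on 6 libraries only, and none of these genes passed edgeR's threshold.

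Around the YTH readers, 78 of 79 genes of the m6A pathway and of the partners of its readers were tested, in 8 lists. Of these 0 passed with edgeR (0.0% of all genes) or DESeq2 (0.165% of all genes), and 1 was at an unadjusted p under 0.05 with edgeR, against 5.26% of all genes tested. The fold change was above 0 in 47 and below 0 in 31, with a median of 0.02 on the log2 scale. Over all 20587 genes tested it was above 0 in 10256 and below 0 in 10331, with a median of -0.001, and the splits of the single lists below are to be read against these counts.

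The list of writers holds genes of the m6A methyltransferase complex and of other methyltransferases. Not all of these methyltransferases mark internal adenosines of mRNA. Of the 12 genes tested, 8 had a fold change above 0 and 4 below, with a median of 0.01. The catalytic subunit gene Mettl3 was at 18.7 ± 0.620 CPM in KO and 18.4 ± 1.88 CPM in WT, and Mettl14, which encodes its partner in RNA binding, was at 20.2 ± 1.06 CPM in KO and 21.4 ± 1.34 CPM in WT. Both erasers, the demethylase genes Fto and Alkbh5, lay above 0 without passing: Fto was at 162.0 ± 2.32 CPM in KO and 158.4 ± 6.63 CPM in WT, and Alkbh5 at 61.5 ± 3.18 CPM in KO and 58.0 ± 1.76 CPM in WT (SD, n = 3 each throughout). These 4 genes were chosen for their place in the pathway after their values were seen, and edgeR's adjusted p was 0.966 to 0.995.

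Readers without a YTH domain split into 5 above and 7 below 0, with a median of -0.004 and Igf2bp1 below the filter. G3bp2, which encodes a stress granule protein reported to be repelled by m6A, was the 1 gene of these lists with a transcript in the authors' deposited table. As a gene it was at 297.5 ± 1.62 CPM in KO and 280.3 ± 9.39 CPM in WT (edgeR log2 fold change 0.09, adjusted p = 0.956). In the authors' deposited table its coding transcript ENSMUST00000167918 (chromosome 5, 92052146 to 92083557) was listed at 4.65, 4.38 and 2.44 FPKM in KO libraries 1, 2 and 3, against 15.1, 6.51 and 13.6 FPKM in WT libraries 1, 2 and 3, with a log2 ratio of -1.62 and a q of 0.00105. The gene total and that transcript thus had opposite signs.

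Genes through which the DF readers act were described likewise. The 11 subunit genes of CCR4-NOT, which shortens poly(A) tails, split into 5 above and 6 below 0, with a median of -0.002. The 12 genes of the RNase P and MRP route, in which RIDA (HRSP12) links YTHDF2 to endonuclease cleavage, had 10 above and 2 below 0, with a median of 0.09 that was 0.054 without KO replicate 3 or without WT replicate 3. The 14 genes of eIF3, the initiation complex reported to bind YTHDF1, split into 7 and 7 with a median of -0.001. Among them Eif3i was at 47.5, 44.9 and 49.9 CPM in KO libraries 1, 2 and 3, against 43.0, 41.1 and 42.3 CPM in WT libraries 1, 2 and 3. Its groups did not overlap, and its log2 fold change was 0.17 (SE 0.062, edgeR unadjusted p = 0.0223, adjusted p = 0.895).

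For the nuclear and helicase readers, the 12 partner genes of YTHDC1 in splicing and export had 10 above and 2 below 0, with a median of 0.04. The splicing factor gene Srsf3, which encodes the best known of these partners, was at 141.2 ± 4.39 CPM in KO and 131.5 ± 1.86 CPM in WT (edgeR log2 fold change 0.10, unadjusted p = 0.0554, adjusted p = 0.93). It too was named after its values were seen. All 3 partner genes of YTHDC2 lay below 0 without passing. The exonuclease gene Xrn1 was at 45.3 ± 1.00 CPM in KO and 47.4 ± 0.750 CPM in WT. The germline partner genes were scarce, with Meioc at 1.15 ± 0.466 CPM in KO and 1.23 ± 0.238 CPM in WT, and Rbm46 at 0.18 ± 0.160 CPM in KO and 0.37 ± 0.0493 CPM in WT.

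**Figure D4:**
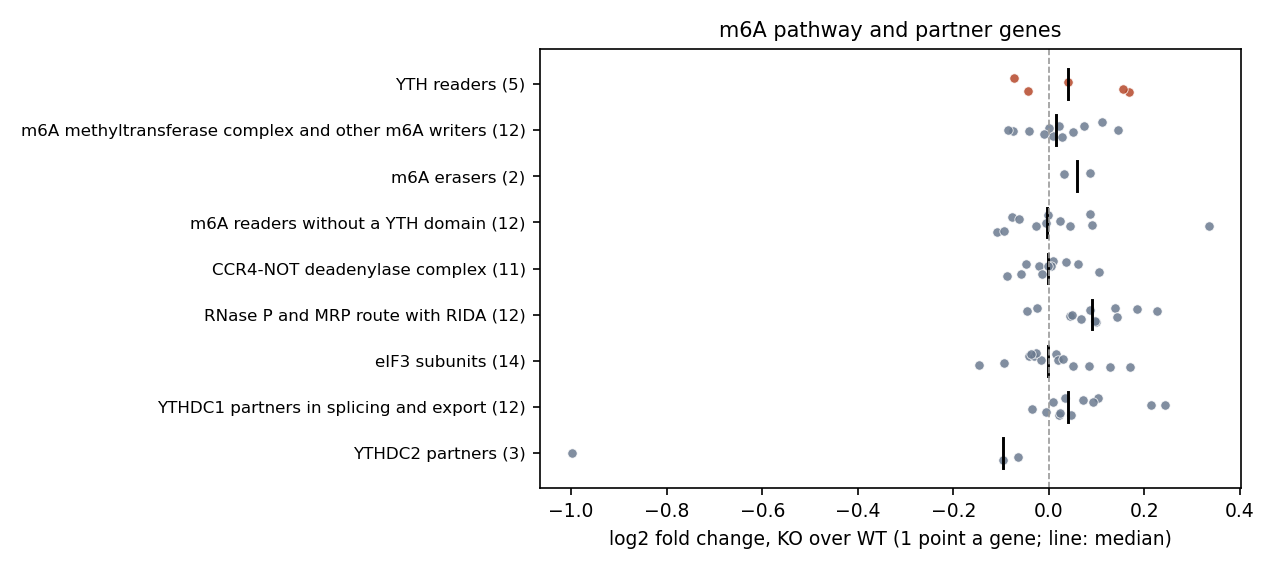
Log2 fold change, KO over WT (horizontal axis), of each tested gene of the YTH family and of 8 lists around it, with the number of genes in parentheses and the median as a black line. The medians of the lists lie between -0.10 and 0.09, and the point near -1 is the scarce gene Rbm46.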

How the data were processed

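Whole-number counts per gene were deposited by the authors without normalization and were analysed unchanged. A second table deposited by the authors listed transcripts as differing, with FPKM per library, a log2 ratio of KO over WT, and p-values and q-values. The submitters' processing notes list cutadapt 1.9, StringTie 2.1.6, HISAT2 2.2.1, edgeR and DESeq2. How genes were counted, with which strand setting and on which build is not given in the sources used here. Symbols and GRCm38 positions came from GENCODE M21 (55141 of 55401 rows matched). Rows with no symbol held 0.00799% of the counts and were kept.

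In R 4.3.3, edgeR 4.0.16 (filterByExpr, TMM, quasi-likelihood F-test) was fitted to all 6 libraries without covariates, with Benjamini-Hochberg adjustment over all genes tested. Intervals used the SE and its t quantile. Alternatives were DESeq2 1.42.0, limma voom 3.58.1, other scalings and filters, a replicate block and each library left out. The pipeline was tested on simulated data. Sequences were aligned with mafft 7.526 and searched with blastn 2.17.0. Named were the 5 members, list genes at an unadjusted p under 0.05 (at most 4 a list), the 2 nearest profiles of each member and members' listed transcripts, with exceptions said in place. A gene chosen by this rule is not reported here. Members and lists were chosen with earlier results of these data known. No library was a copy of another (chi-square of at least 15.4 per degree of freedom between any pair).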

Additional observations from a re-analysis of the deposited data

How the results depend on the processing

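The member fold changes were refitted under 14 alternatives each, and no member passed the threshold in any of them (lowest adjusted p 0.75). Leaving out 1 library at a time gave a log2 fold change of 0.12 to 0.21 for Ythdf1, 0.12 to 0.20 for Ythdf2, -0.12 to -0.05 for Ythdf3, 0.02 to 0.05 for Ythdc1 and -0.11 to 0.00042 for Ythdc2, the sign of Ythdc2 turning only without WT replicate 1. The summed Ythdf2 and Ythdf3 difference ran from -0.039 to 0.0051, the log2 difference of Ythdf1 over Ythdf2 from -0.089 to 0.0897 and that of Ythdf3 over Ythdc2 from -0.068 to 0.016. The cause of these turns was not tested. The Ythdf1 share of the trio stayed 2.46 to 3.62 percentage points higher in KO, and 2.72 points by counts not scaled by length. Over all genes, edgeR's 0 calls (1083 at an unadjusted p under 0.05) became 34 with DESeq2, and 0 to 2 with 1 library left out (1 without WT replicate 2, and 2 each without WT replicate 3, KO replicate 1 and KO replicate 3). No YTH gene and no gene of the 8 lists was among these or DESeq2's. The calls of DESeq2 did include cell type markers. These were 4 of the 8 meningeal, 1 of the 8 striatal and 1 of the 8 oligodendrocyte markers, with 0 in each other marker list. Their part in the YTH values was not tested. The median of the 3 YTHDC2 partners, -0.10 over all libraries, was -0.41 without KO replicate 2, and that of the RNase P and MRP route, 0.09, ran from 0.054 to 0.126. Medians near 0 changed sign with single libraries. That of the writers ran from -0.0079 (without KO replicate 1) to 0.0361, that of the readers without a YTH domain from -0.0139 to 0.0229 (above 0 without KO replicate 2, WT replicate 1 or WT replicate 3), that of CCR4-NOT from -0.0235 to 0.0129 (above 0 without WT replicate 3) and that of eIF3 from -0.0144 to 0.0049 (above 0 without KO replicate 1 or KO replicate 3). With library totals only, the last 3 were 0.0029, 0.0047 and 0.0062. The labels share replicate numbers and do not say whether these pair the libraries. Deviations of same-numbered libraries correlated at -0.04, 0.04 and 0.03, and those of other pairs at -0.055 to 0.033. Such values cannot show that a pairing was absent, so it remains unknown. With the replicate block 0 genes passed, and Ythdf1 had a log2 fold change of 0.17 (edgeR adjusted p = 0.996).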
